A study of Mus musculus with 2 samples.

Results

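The cells described here were the lymph node cells with transcripts of the high endothelial genes Glycam1, Chst4 and Fut7, cells of any size included, and they were chosen by their own unique molecular identifiers (UMIs, one for each captured transcript). A cell was selected on at least 5 UMIs of the 3 genes with at least 2 of them detected, over 200 detected genes, at most 5% mitochondrial UMIs, at most 2 UMIs of Cd79a, Cd79b, Cd3d and Cd3e (B and T cell receptor components) and at most 20 UMIs of the keratins Krt8 and Krt18. Of 11617 lymph node cells, 11269 met the gene and mitochondrial limits and 62 met the whole rule, which was 0.55% of them (exact Clopper-Pearson 95% interval 0.422 to 0.705%). The selected cells comprised 27 large cells, with over 6000 detected genes, and 35 smaller cells.

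The study counted transcripts in single cells of primary tumours and paired lymph nodes of C57BL/6J mice bearing EO771-HEVM3, a derivative of a mouse breast cancer line that the study selected in mice for spread through high endothelial venules. Each tissue gave 1 library of droplet-based 3′ counts pooled from 6 mice, no label ties a cell to a mouse, and no group without a tumour is among the samples. All differences below therefore compare libraries or cells within a library, have no replicate check, and carry no test. Levels are counts per 1000000 UMIs (CPM) of UMIs summed over a group, and the bracketed exact 95% Poisson intervals, like all intervals here, cover counting error only.

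High endothelial venules are the post-capillary vessels through which lymphocytes leave the blood for the lymph node. Their cells display sulphated, fucosylated sialomucins that bind L-selectin on lymphocytes: Glycam1 is one such mucin, Fut7 adds the fucose and Chst4 adds the sulphate. Alox12 encodes the lipoxygenase that makes 12-HETE from arachidonic acid, and Enpp2 encodes autotaxin, a secreted enzyme that makes lysophosphatidic acid and is known from these venules.

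The promoters of a mucin gene and a sulfotransferase gene used for the selection, and of Alox12, are shown. Of the Alox12 UMIs in the lymph node cells kept, 59.5% lay in the selected cells. For both selection genes the rule itself favoured such a concentration. The promoters of Fut7, the remaining selection gene, are not shown. Each RefSeq sequence (GRCm38.p6) runs from 250 bases before the annotated start to 50 after it, and capitals mark matches on either strand to TGANTCA (the AP-1 motif) or GGGCGG (the GC box), which do not overlap here. They lie on the minus strand at chr15:103565032-103565331 (Glycam1), chr8:110039285-110039584 (Chst4) and chr11:70255321-70255620 (Alox12).
Glycam1: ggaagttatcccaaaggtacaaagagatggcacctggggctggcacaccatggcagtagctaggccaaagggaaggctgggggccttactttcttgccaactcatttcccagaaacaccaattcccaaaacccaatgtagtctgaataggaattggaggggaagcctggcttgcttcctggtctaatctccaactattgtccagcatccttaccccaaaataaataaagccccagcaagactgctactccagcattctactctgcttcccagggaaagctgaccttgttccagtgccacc
Chst4: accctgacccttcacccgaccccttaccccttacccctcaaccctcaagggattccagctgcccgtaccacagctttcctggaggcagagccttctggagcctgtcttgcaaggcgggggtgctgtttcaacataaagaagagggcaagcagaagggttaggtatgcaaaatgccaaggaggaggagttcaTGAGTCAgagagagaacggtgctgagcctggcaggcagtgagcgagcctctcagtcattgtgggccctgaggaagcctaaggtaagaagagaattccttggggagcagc
Alox12: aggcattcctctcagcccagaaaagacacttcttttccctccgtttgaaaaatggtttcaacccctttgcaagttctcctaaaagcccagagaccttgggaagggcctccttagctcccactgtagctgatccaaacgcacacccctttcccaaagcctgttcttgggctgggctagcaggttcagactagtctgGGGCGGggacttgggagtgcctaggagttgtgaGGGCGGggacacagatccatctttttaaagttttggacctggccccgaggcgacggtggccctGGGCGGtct
The Chst4 window held 1 AP-1 match and the Alox12 window 3 GC boxes, while the Glycam1 window held neither. Of 32851 promoters of the same length, 7.81% held TGANTCA and 35.7% held GGGCGG. In GENCODE annotation of GRCm38 the genes span chr15:103562759-103565081 (Glycam1), chr8:110029153-110039740 (Chst4), chr2:25423267-25426374 (Fut7), chr11:70241457-70255353 (Alox12) and chr15:54838901-54952892 (Enpp2).

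The limits on Glycam1, Chst4 and Fut7 were met by 85 cells, of which 17 were left out for lymphocyte transcripts and 6 for keratins. Among the 62 cells kept, 57 had all 3 genes, 3 lacked Glycam1, 1 lacked Chst4 and 1 lacked Fut7. Just inside the limit, 5 cells had 5 to 9 UMIs of the 3 genes, and just outside it 4 cells had 3 or 4 UMIs and 2 had at least 5 UMIs of a single gene. At the size limit, the largest of the smaller cells had 5859 detected genes and the smallest of the large cells 6034. No primary tumour cell met the limits on the 3 genes, and that whole library held 1 Glycam1, 59 Chst4 and 40 Fut7 UMIs. The libraries shared 47 cell barcodes, and 0 of the selected cells carried one.

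Depth varied widely among the selected cells. The large cells had 43088 to 155522 UMIs (median 59773), and the smaller cells had 866 to 57462 (median 29965). Of the smaller cells 5 had under 5000 UMIs, and together they held 11055 UMIs. The comparison cells were 97 other lymph node endothelial cells (median 52497 UMIs), with at least 5 UMIs and at least 3 of Pecam1, Cdh5, Egfl7, Esam and Tie1, at most 1 UMI of the 3 selection genes and at most 2 of the lymphatic genes Prox1, Lyve1, Mmrn1 and Reln, and within the same lymphocyte and keratin limits. Another 49 endothelial cells came from the primary tumour by the same endothelial limits (median 6850 UMIs). The automatic doublet threshold marked 0 lymph node cells and so could not serve to find doublets. Of the 62 selected cells, 0 had a score above the 94th percentile of their library. The lymphocyte and keratin limits had already narrowed these cells, so this does not show them to be single cells.

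**Figure D1:**
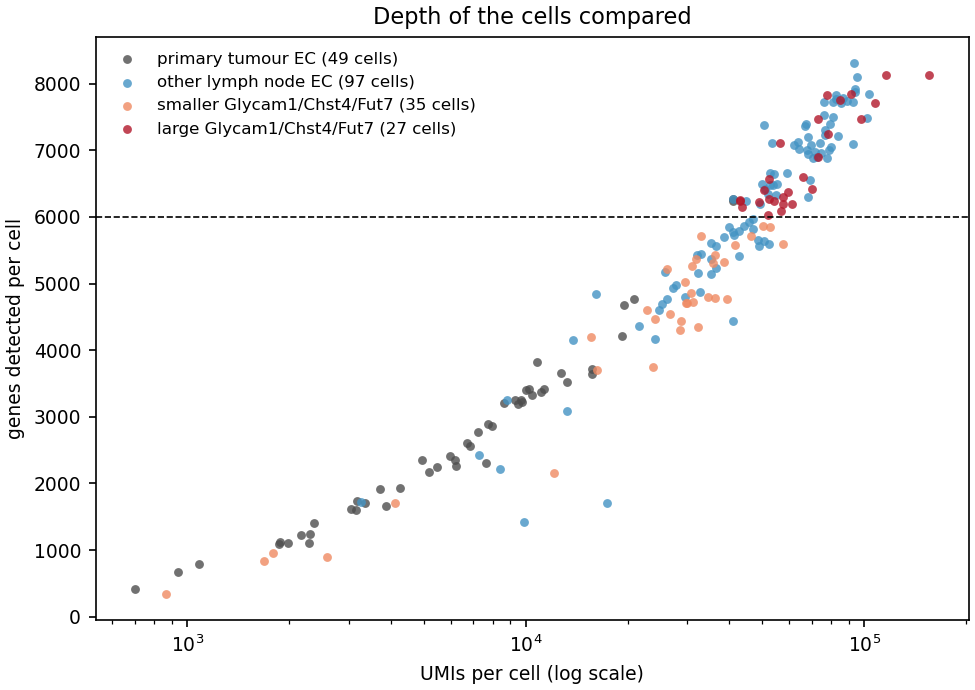
UMIs per cell (log scale) against genes detected per cell for the selected cells and both endothelial comparison groups, 1 point per cell, with the dashed line at 6000 genes. The selected and the other lymph node endothelial cells cover similar depths, and the primary tumour endothelial cells lie lower, with a median of 6850 UMIs.

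The label of high endothelial cells was only partly borne out by other markers. General endothelial genes were present: Pecam1, an adhesion molecule of endothelial junctions, stood at 150 CPM [137, 165], Cdh5 (VE-cadherin) at 149 [136, 164], and Egfl7, a secreted endothelial factor, at 395 [372, 418]. In the 845 other lymph node cells with over 6000 genes, nearly all with keratins, Pecam1 was at 21.8 CPM and Cdh5 at 17.8. Egfl7 and Esam were less specific, at 81.9 and 38.5 CPM in those cells and with a UMI in 69.5% and 83% of them. At least 3 of the 5 endothelial genes were detected in 53 of the 62 cells, among them all 27 large cells, while 3 smaller cells had none. Selp (P-selectin), which venular endothelium stores, was at 85.8 CPM [75.4, 97.3] and the venous regulator Nr2f2 at 44.3 [36.9, 52.7]. In the other lymph node endothelial cells Selp was at 111 CPM and Nr2f2 at 75.9.

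Several other genes linked to high endothelial venules had no UMI in the selected cells. These were Madcam1 (the mucosal addressin), Ackr1 (the atypical chemokine receptor of venules), Ccl21a (a lymphocyte attractant), Chst2 (the partner sulfotransferase of Chst4), Fut4 and Nkx2-3, and 0 UMIs there allow at most 1.05 CPM. The tight junction gene Cldn5 and the regulator Sox18 were likewise at 0. In the other lymph node endothelial cells Cldn5 was at 5.72 CPM, with all 30 UMIs in 1 cell, and Sox18 at 0.954 CPM. In primary tumour endothelial cells they were at 584 and 107 CPM. In all 11269 lymph node cells kept, Madcam1 had 16 UMIs, Ackr1 11, Ccl21a 38, Fut4 15, Nkx2-3 2 and Chst2 394. Apart from Chst2 these genes were rare in the whole library, so 0 UMIs in the selected cells says little. The study took endothelial cells expressing the 3 selection genes as high endothelial cells. Because the genes above were not seen, the cells are called HEC-gene cells below, after the genes that selected them.

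**Figure D2:**
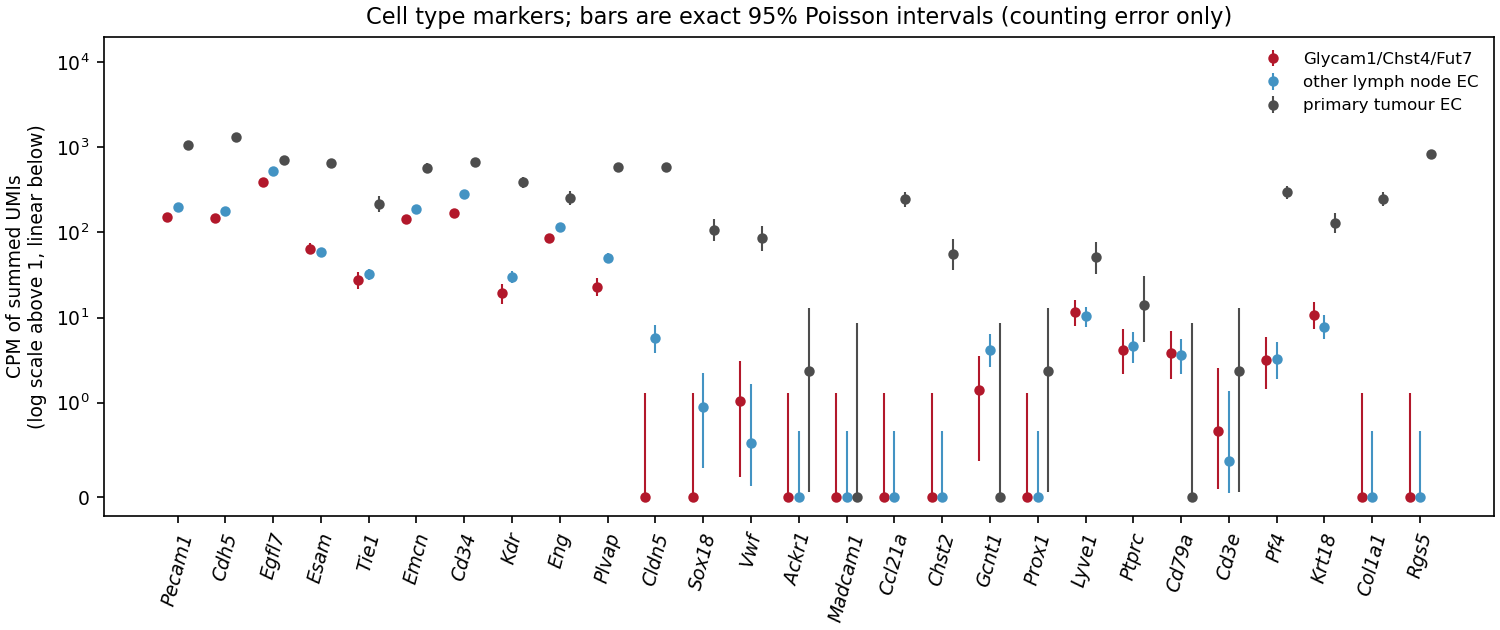
CPM of summed UMIs (log scale above 1, linear below) for markers of endothelium and of other cell types in HEC-gene cells, other lymph node endothelial cells (EC) and primary tumour endothelial cells, with exact 95% Poisson intervals. Pecam1 and Cdh5 are near 150 CPM in HEC-gene cells, and Madcam1, Ackr1 and Ccl21a are at 0 there.

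Markers of other cell types were summed as lists. Summed CPM was 14.7 over 9 T cell genes, 48.5 over 8 B cell genes, 8.37 over 10 platelet genes, 49.5 over 10 epithelial genes, 5.93 over 9 fibroblastic genes and 1.4 over 8 pericyte genes. For the same lists the sums were 11.6, 39.1, 8.78, 54.9, 8.01 and 3.05 CPM in the other lymph node endothelial cells. The T cell, B cell and epithelial lists hold the genes that the lymphocyte and keratin limits capped in both groups. Their sums were therefore partly fixed by the rule. Over 7 macrophage genes the sum was 82.3 CPM against 155, and over 7 dendritic genes 149 against 195, mostly from Cd68 (231 UMIs) and Fscn1 (420 UMIs). Their part in the results below was not tested. Over 9 lymphatic genes the sum was 22 CPM against 29, with Lyve1 at 33 UMIs, Flt4 at 28 and Prox1 at 0 in HEC-gene cells. Only the comparison cells had been limited on Prox1, Lyve1, Mmrn1 and Reln. The fibroblast gene Col1a1 and the pericyte gene Rgs5 had no UMI there, and Dcn had 11. Of the leukocyte genes Arhgdib made up most of a summed 542 CPM, against 576 in the other endothelial cells.

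The selection genes themselves are given as a description. Glycam1 ranged from 0 to 1665 UMIs per cell, with a median of 65 in large and 41 in smaller cells. Chst4 reached 312 UMIs in 1 cell, with medians of 14 and 10 in large and smaller cells, and Fut7 reached 332 with medians of 30 and 16. Per cell, the large cells thus carried at least as many transcripts at the median. On the CPM scale the order was the opposite, with Glycam1 at 2199 CPM in large and 6484 in smaller cells. The HEC-gene cells held 84.3% of the Glycam1, 84.5% of the Chst4 and 78.3% of the Fut7 UMIs of the lymph node cells kept. Across the 62 cells the CPM of the 3 genes had Spearman correlations of 0.83 for Glycam1 and Chst4, 0.82 for Glycam1 and Fut7 and 0.83 for Chst4 and Fut7, where the points share 1 library and the rule.

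Alox12 was detected in 48 of the 62 HEC-gene cells. Its level was 348 CPM [327, 371] over all of them, 190 [171, 210] in large cells and 651 [602, 704] in smaller cells. The large cells had 0 to 85 UMIs (median 4) and the smaller cells 0 to 130 (median 7), so that the per-cell ranges overlapped. Alox12 UMIs were concentrated, with 43.2% of them in 5 cells. Without the cell richest in Alox12 the level was 149 CPM in large and 539 in smaller cells, and the smaller cell with the fewest UMIs, 866 in all, held 56 of Alox12.

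Alox12 was also measured in other cells of both libraries. The level was 3.62 CPM [2.18, 5.66] in other lymph node endothelial cells, from 19 UMIs in 97 cells, and 16.3 [6.55, 33.5] in primary tumour endothelial cells, from 7 UMIs in 49 cells. After thinning each cell to 1000 UMIs, 23.2% of HEC-gene cells would carry Alox12 (77.4% unthinned, median depth 42272), against 0.35% of other lymph node endothelial cells (7.22% unthinned). In lymph node T cells, taken as the background, the share was 0.0515% (0.181% unthinned, median depth 3418). Of all Alox12 UMIs in the lymph node cells kept, 59.5% lay in HEC-gene cells and 31.5% in B cells, of which 0.21% would carry Alox12 after thinning (0.397% unthinned, median depth 1843). Of the 529 Alox12 UMIs in B cells 458 lay in 1 cell with 4243 UMIs, which also had 124 UMIs of the selection genes and was left out for its 11 lymphocyte UMIs. Keeping such cells raised the level in smaller cells to 1031 CPM.

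Enpp2 also differed between HEC-gene cells and other lymph node endothelial cells. It was detected in 46 HEC-gene cells at 276 CPM [257, 296], with 138 [121, 155] in large and 540 [495, 588] in smaller cells, and 0 to 37 and 0 to 146 UMIs per cell. In other lymph node endothelial cells Enpp2 was at 1.72 CPM [0.785, 3.26], from 9 UMIs. Enpp2 was not restricted to HEC-gene cells in the node, as they held 5.51% of its UMIs and the 845 other large cells had 158 CPM. After thinning, 22.7% of HEC-gene cells would carry it, against 0.163% of other endothelial cells and 0.314% of T cells.

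**Figure D3:**
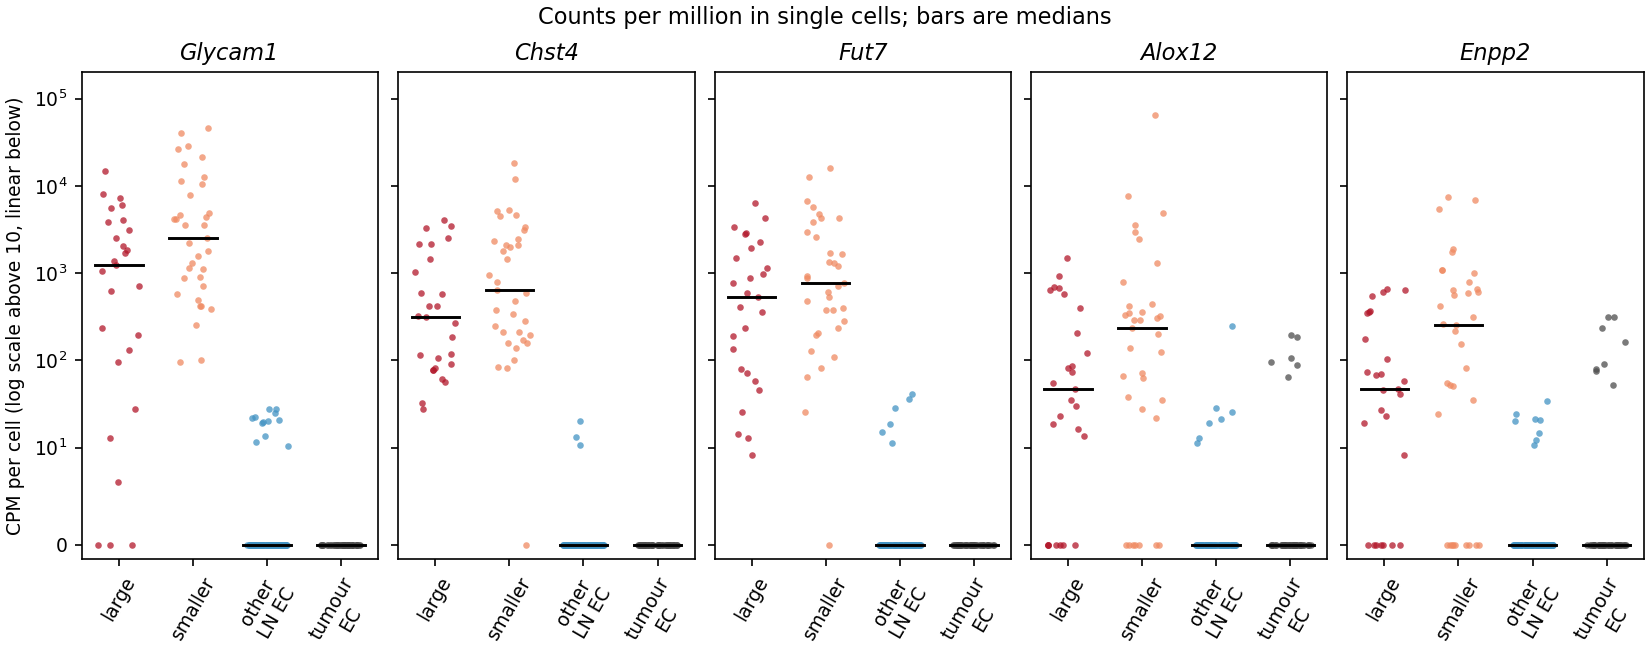
CPM per cell (log scale above 10, linear below) of the 3 selection genes, Alox12 and Enpp2 in large and smaller HEC-gene cells, other lymph node endothelial cells (LN EC) and primary tumour endothelial cells, 1 point per cell, with bars at the median. The median Alox12 level is 47.2 CPM in large and 232 in smaller HEC-gene cells and 0 in both other groups, and 14 HEC-gene cells are at 0.

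Enpp2 was also the gene whose level followed Alox12 most closely over the 62 cells. Among 5396 genes detected in at least 50% of them, the highest Spearman correlations with Alox12 were those of Enpp2 (0.73), the cyclin gene Ccnl1 (0.62), Glycam1 (0.54), the thiamine transporter gene Slc19a2 (0.53) and the ribosomal gene Rplp2 (0.49). Within the large cells the value for Enpp2 was 0.71 and within the smaller cells also 0.71. It was 0.65 in smaller cells over 5000 UMIs. Enpp2 itself followed the selection gene Glycam1 more closely, with a correlation of 0.81 over the 62 cells. All points share 1 library, and depth differs between them.

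Of the 17 other genes of the lipoxygenase and prostaglandin list, 9 had a UMI in HEC-gene cells. Among all 18 genes, 4 had at least 100 UMIs in HEC-gene and other endothelial cells together. Beside 1.19% of all genes, Alox12 and Ptgs2 (cyclooxygenase 2) were at least 2-fold higher in HEC-gene cells. Ptgs2 was at 131 CPM [118, 145] against 49 [43.2, 55.4]. Ptgds, a prostaglandin D synthase, was lower at 5.23 CPM against 23.3, beside 2.82% of all genes at least 2-fold lower. It met the count limit only through the other cells. Of the other lipoxygenase genes Aloxe3 had 10 UMIs and Alox8 6 in HEC-gene cells, and Alox5, Alox15, Alox12b and Alox12e had none.

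Apart from such genes, HEC-gene cells and other lymph node endothelial cells had similar levels. Of 6997 genes compared, 83 (1.19%) were at least 2-fold higher and 197 (2.82%) at least 2-fold lower in HEC-gene cells, with a median log2 fold of -0.06 over all genes. The 83 include the 3 selection genes. With the cell richest in each gene left out of both groups, 69 of the 83 and 197 of the 197 still passed 2-fold. These counts describe the cells, since every gene was measured in cells that the rule had chosen.

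Leaving out the selection genes, the largest log2 folds among genes that still passed were those of Enpp2 (7.25 [6.4, 8.46]) and Alox12 (6.55 [5.94, 7.32]). Without the keratin limit the log2 fold of Enpp2 was 2.75, and the lowest value of Alox12 under the alternatives was 5.88. Next came Rep15 (2.67), the chemokine gene Ccl4 (2.65), Tmem80 (2.44), Tcim (2.29), the interferon-induced genes Mx2 (2.24) and Ifit3b (2.02), the chemokine gene Cxcl10 (1.97) and Olfr889 (1.82). Rep15 was detected in 7 HEC-gene cells and 10 other endothelial cells, and without the top cell of each group its log2 fold was 1.54. The lowest were the histone genes H2ac20 (-2.55) and H2ax (-2.20), Anxa8 (-2.52), the mitotic genes Aurkb (-2.51), Ube2c (-2.41) and Prc1 (-2.36), then Arl6ip1 (-2.21), Ptgds (-2.11), Plac8 (-2.07) and Cdc25b (-2.06).

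**Figure D4:**
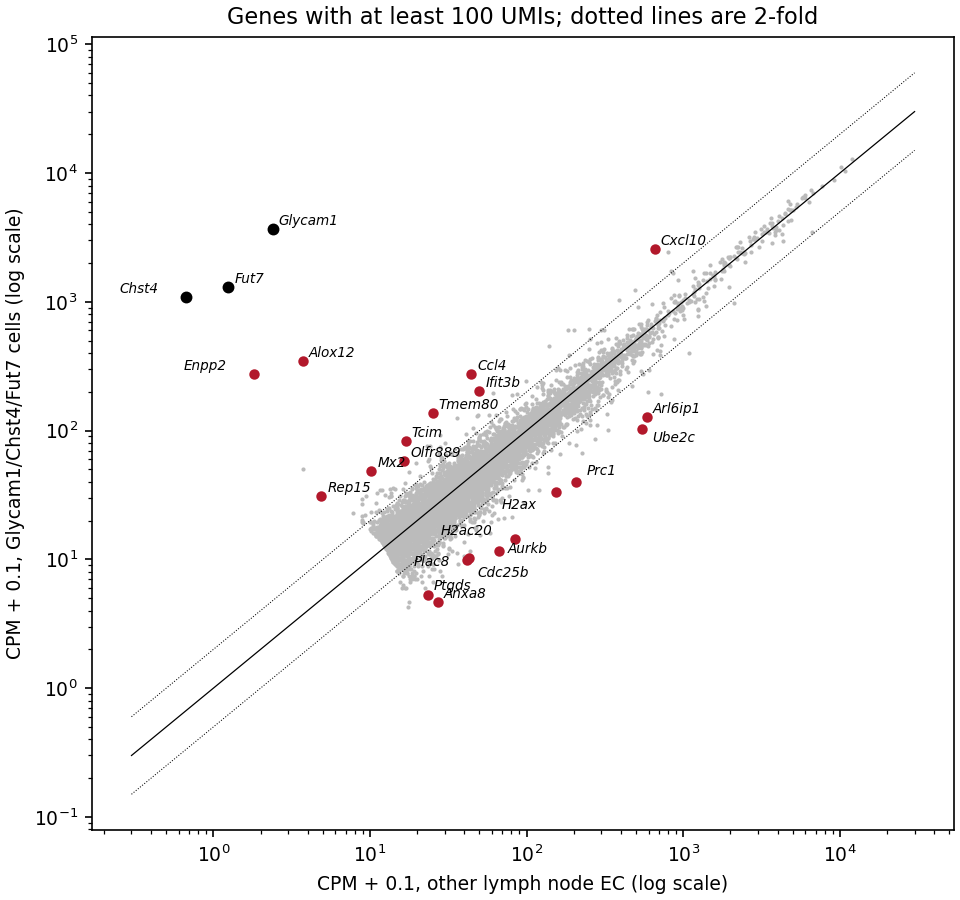
CPM plus 0.1 in HEC-gene cells against other lymph node endothelial cells (EC), both on log scales, for the 6997 genes compared, with selection genes in black and the genes named by rule in red. Most genes lie between the dotted 2-fold lines, and Enpp2 and Alox12 stand apart with the selection genes.

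Inflammatory chemokine genes were among the higher ones. Of 20 chemokine and cytokine genes 6 could be compared, and 4 were at least 2-fold higher and 0 lower in HEC-gene cells, beside 1.19% of all genes higher, with a median log2 fold of 1.16 against -0.06 over all genes. Cxcl10, which attracts activated T cells, was at 2576 CPM against 657, and Cxcl1, which attracts neutrophils, at 605 against 184. Cxcl2 stood at 245 against 99 CPM. Ccl2, the monocyte attractant, was at 600 against 298 CPM, but 1071 of its 1720 UMIs lay in 1 cell, and its log2 fold without the top cell of each group was -0.20. Ccl5 was similar, at 1740 and 1809 CPM.

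Several genes of the unfolded protein response were higher over all HEC-gene cells. Of 17 genes, 6 were at least 2-fold higher (1.19% of all genes were) and 0 lower, with a median log2 fold of 0.85 against -0.06 over all genes, among them the chaperone gene Hspa5 at 2437 CPM against 804 and the secreted factor gene Manf at 611 against 251. With both groups restricted to cells of at most 6000 genes, the log2 fold was -0.021 for Hspa5 and -0.46 for Manf, and the values of Hsp90b1, Sdf2l1 and Creld2 were also below 0 there. The p53 target list had 3 of 14 genes at least 2-fold higher and 0 lower (median 0.55), beside the same 1.19%, with Mdm2, the p53 ubiquitin ligase, at 1031 against 390 CPM. Interferon response genes had 4 of 16 higher and 0 lower (median 0.53), again beside 1.19%, with Ifit3 at 454 against 139 CPM and Rsad2 at 1240 against 492. Of the 3553 Rsad2 UMIs 1461 lay in 1 cell, and without the top cell of each group its log2 fold was 0.96. Iigp1, also among the 4 interferon genes, had a log2 fold of -0.31 as the mean of single cells.

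Several genes of mitosis were lower. Of 16 such genes 6 were at least 2-fold lower and 0 higher, beside 2.82% of all genes lower, with a median of -0.83 against -0.06, including Top2a at 101 against 333 CPM and Ube2c at 102 against 544. Mki67 was at 151 against 175 CPM. None of 16 DNA replication genes passed 2-fold in either direction (median 0.05).

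Endothelial and venular genes were compared as lists, beside the 2.82% of all genes at least 2-fold lower. Of 18 pan-endothelial genes 14 could be compared, and 4 of them, Erg, Robo4, Plvap and Icam2, were at least 2-fold lower, with 0 higher and a median of -0.48 against -0.06 over all genes. The list holds the 5 genes that chose the other endothelial cells and not the HEC-gene cells, so its values describe the groups only. Of 7 venular and adhesion genes compared, Icam2 alone was at least 2-fold lower and 0 were higher (median -0.37). Of the 15 genes for L-selectin ligands other than the selection genes, 4 could be compared and 0 passed 2-fold. The sialomucin gene Cd34 was at 170 CPM against 285 and Emcn at 146 against 190. Of 3 semaphorin receptors compared, Plxna2 alone was at least 2-fold lower (31 against 129 UMIs) and 0 were higher. Nrp2 was at 47.5 against 63.1 CPM. Plxna1, which did not reach the count limit, was at 9.77 against 12.

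Large and smaller HEC-gene cells were then compared with each other. Of 3896 genes, 152 (3.9%) were at least 2-fold higher in large cells and 55 (1.41%) at least 2-fold lower, with a median log2 fold of 0.14. Glycam1 and Chst4 are among the lower genes. Among the highest were Serpinb9b (2.96), the tubulin gene Tuba1b (2.92), Ly6c1 (2.20), Gnpnat1 (2.1), H1f5 (1.91), the cyclin gene Ccnd2 (1.84), Tuba1c (1.79), Ormdl2 (1.78) and Prc1 (1.76). The lowest were Cxcl2 (-3.60), Ccl2 (-3.19), the activin subunit gene Inhba (-2.86), Txnip (-2.73), Wdcp (-2.68), Junb (-2.26), Enpp2 (-1.97), Plscr2 (-1.93), Mx2 (-1.93) and Usp18 (-1.81). Alox12 had a log2 fold of -1.78 [-1.97, -1.59]. With the size limit at 5000 genes the log2 fold of Cxcl2 was -0.98. Ly6c1 was detected in 7 large and 6 smaller cells, and without the top cell of each group its log2 fold was 1.18.

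The gene lists were compared in the same way, and their counts stand beside the 3.9% of all genes higher and 1.41% lower in large cells and the median of 0.14. Of 6 chemokine and cytokine genes compared 4 were at least 2-fold lower in large cells and 0 higher (median -1.16), with Cxcl10 at 1841 CPM in large and 3982 in smaller cells. Without the top cell of each group, the log2 fold of Ccl2 was -1.76. Of 9 immediate early genes 5 were lower and 0 higher (median -1.27), with Jun at 1131 against 2733 CPM, and with the size limit at 5000 genes the log2 folds of Jun, Junb, Egr1 and Ier2 turned positive. Of 15 unfolded protein response genes 4 were higher in large cells and 0 lower (median 0.82), with Manf at 803 against 246 CPM, while with the size limit at 7000 genes the log2 fold was -0.18 for Manf and -0.32 for Dnajc3. Of 14 mitosis genes 4 were higher, Top2a, Cdk1, Plk1 and Ube2c, and 0 lower, with a median of -0.07 against 0.14 over all genes. Of 7 pan-endothelial genes compared 0 passed 2-fold in either direction, with Pecam1 at 155 and 141 CPM and Cdh5 at 151 and 146.

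**Figure D5:**
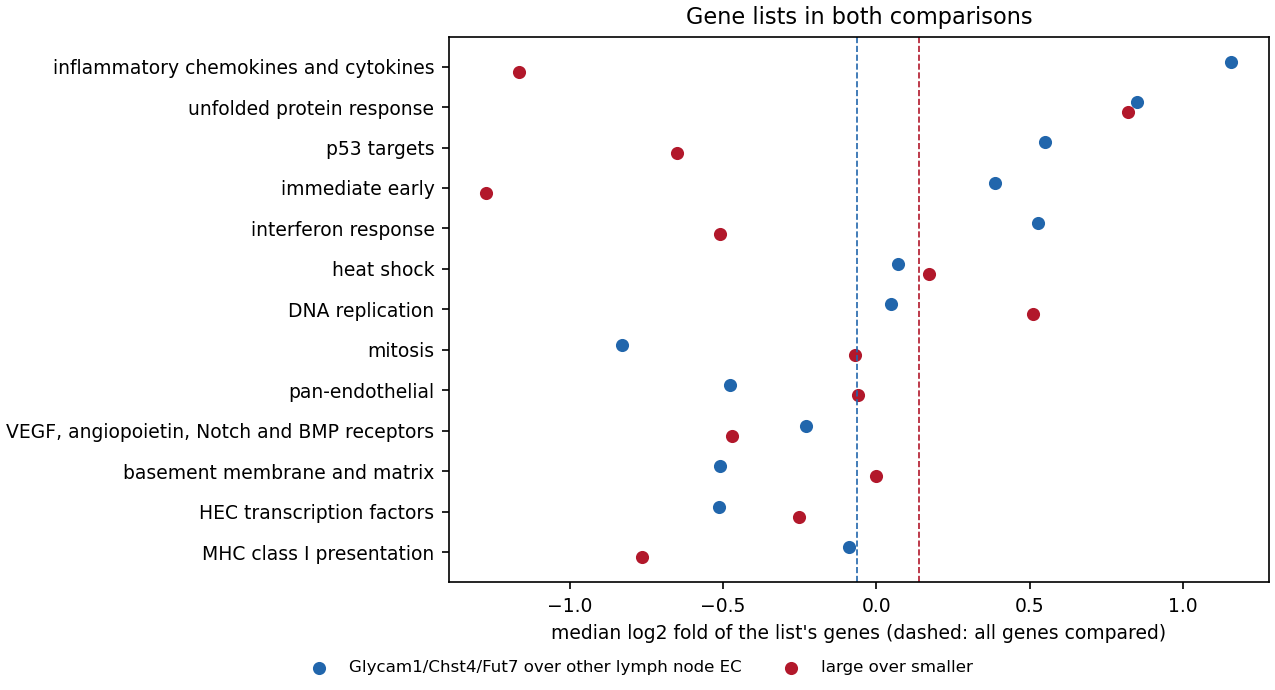
Median log2 fold of the compared genes of selected lists for HEC-gene cells over other lymph node endothelial cells (EC, blue) and for large over smaller HEC-gene cells (red), with dashed lines at the medians of all genes compared, -0.06 and 0.14. Among the lists drawn the chemokine list has the highest blue median, 1.16, and a red median of -1.16.

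The primary tumour endothelial cells differed from HEC-gene cells far more, and tissue, library and depth cannot be told apart in this comparison. Of 4545 genes, 1296 (28.5%) were at least 2-fold higher in HEC-gene cells and 812 (17.9%) at least 2-fold lower. Apol9a, Klra4, D030056L22Rik, Plcxd2 and Pinx1 had no UMI in the tumour endothelial cells and were at least 42.9-, 26.4-, 20.5-, 18.9- and 13.5-fold higher in HEC-gene cells. Over other lymph node endothelial cells their log2 folds were 0.12, -0.15, 0.41, 1.05 and 0.21, so only Plcxd2 passed 2-fold there. Igfbp7, Sparcl1, Rgs5 and Gpihbp1 had none in HEC-gene cells and were at least 1902-, 998-, 804- and 693-fold lower there. Each gene named here with no UMI in a group met the count limit through the other group, so passing fixed its direction. Rgs5, a pericyte marker, was detected in 6 of the 49 tumour endothelial cells. In those cells the pericyte list summed to 1298 CPM, the fibroblastic list to 821 and the erythroid list to 2065, against 1.4, 5.93 and 1.74 in HEC-gene cells, and their part in the differences was not tested. Igfbp3 had 1 UMI in HEC-gene cells against 2066 in tumour endothelial cells, a log2 ratio with a counting interval of -19.05 to -11.27.

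General endothelial genes were lower in HEC-gene cells than in the tumour vessels. Of 13 pan-endothelial genes compared 12 were at least 2-fold lower and 0 higher, beside 17.9% of all genes lower (median -2.97 against 0.28 over all genes), with Pecam1 at 150 against 1060.5 CPM and Cdh5 at 149 against 1316. Both genes served to choose the tumour endothelial cells, whose depth was lower, and not the HEC-gene cells, so these values describe the groups only. Kdr, Cldn5, Plvap and Flt1 reached 100 UMIs only through the tumour cells, where passing fixed their direction. Of 16 basement membrane and matrix genes 15 reached 100 UMIs, several of them only through the tumour cells, where passing fixed their direction. In the other direction, beside 28.5% of all genes, 14 of 16 DNA replication genes and 10 of 14 p53 targets were at least 2-fold higher in HEC-gene cells. The replication genes, and the p53 targets called higher except Cdkn1a, had under 100 UMIs in tumour endothelial cells. They met the count limit through HEC-gene cells, so these counts describe the groups only. Alox12 was at 348 against 16.3 CPM and Enpp2 at 276 against 18.6. Selp was at 85.8 against 62.8 CPM.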

How the data were processed

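Raw UMI counts per gene and cell were deposited for 1 primary tumour and 1 lymph node library. Per the file headers the authors made them with Cell Ranger 5.0.0, while the submitters' processing notes name Cell Ranger 2.1.1 and GRCm38. Cells over 6000 genes were present in the deposited counts, although the study methods state that number as an upper limit. The lymph node library held 122207852 UMIs in 11617 cells and the primary tumour library 173317475 in 12427.

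UMIs were summed per group and given as CPM. Log2 folds added 0.5 UMI to each sum and covered genes with at least 100 UMIs in both groups together. A gene scarce in a group met this limit through the other group, which favoured folds towards the latter. A fold against 0 UMIs used a floor of 3 UMIs over the group. Shares were thinned to 1000 UMIs, which left out 1 HEC-gene cell, 0 other lymph node endothelial cells and 2 T cells, the latter having at least 3 Cd3d and Cd3e UMIs and none of Cd79a and Cd79b (B cells the reverse). Fold and thinning steps were tested on simulated data. Doublets were scored with Scrublet in scanpy 1.11.5 (expected rate 6%, 30 components) and none were removed. Figures were drawn with matplotlib 3.10.9, and intervals came from scipy 1.17.1 under python 3.11.15.

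The members and the 34 gene lists were chosen with earlier results of these data known. Besides list genes, the text names the 10 highest and 10 lowest log2 folds (5 and 5 against the primary tumour) that passed 2-fold also without the top cell of each group, leaving out the selection genes. Rsad2 and a few list genes are named for 1 dominant cell, after their values were seen. One gene that met this rule is not reported here. For Alox12 it names the 5 genes with the highest Spearman correlation. Alternatives changed the cell limits, the size limit, the level, the count filter, the scaling and the comparison cells. DoubletFinder, named in the study methods, was not used here.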

Additional observations from a re-analysis of the deposited data

How the results depend on the processing

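The number of HEC-gene cells stayed within 1.5 times of 62 under every alternative run. The number of large cells was 17 with no lymphocyte UMI allowed and 10 with the size limit at 7000 genes. Alox12 in large cells was 229 CPM with at least 10 selection UMIs, 211 with all 3 genes required, 157 without the keratin limit, 132 with the size limit at 7000 genes, 230 as the mean of single cells and 149 without its top cell. In smaller cells it was 479 CPM with no lymphocyte UMI allowed, 1031 without that limit, 597 with at least 2 endothelial genes, 1093 and 454 with the size limit at 5000 and 7000 genes, 2643 as the mean of single cells and 539 without its top cell. Leaving out cells under 5000 UMIs, an alternative added after seeing the data, gave 580 CPM. The log2 fold of Alox12 over other lymph node endothelial cells ranged from 5.88 to 8.68 and that of Enpp2 from 2.75 (without the keratin limit) to 8.42, and in large over smaller cells from -3.52 to -1.28 and from -2.54 to -1.30.

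Counts of genes past 2-fold moved with several settings. With at least 20 and at least 300 UMIs they were 190 and 44 higher and 530 and 79 lower than in other lymph node endothelial cells, 702 and 31 higher and 187 and 18 lower in large cells, and 2219 and 596 higher and 2208 and 222 lower than in the primary tumour. Restricting both groups to at most 6000 genes gave 117 lower than in other endothelial cells, and 581 higher and 434 lower than in the primary tumour. The mean of single cells gave 346 lower than in other endothelial cells and 232 higher in large cells. Including the cells with lymphatic genes gave 406 lower. The size limit at 5000 genes gave 238 higher and 36 lower in large cells, and centring gave 92 higher.

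Some log2 folds changed sign, and the cause was not tested. Over other endothelial cells these were Ccl2 without the top cells (-0.20), Iigp1 as the mean of single cells (-0.31), and, at most 6000 genes, Hspa5 (-0.021), Hsp90b1 (-0.38), Sdf2l1 (-0.088), Creld2 (-0.15) and Manf (-0.46). In large over smaller cells they were, at 5000 genes, Junb (0.25), Id1 (0.39), Jun (0.75), Egr1 (2.12), Ier2 (0.73) and Tcim (0.17), at 7000 genes Dnajc3 (-0.32), Manf (-0.18), Egr1 (0.18), Ifit2 (0.38) and Tmem80 (-0.11), and, as the mean of single cells, Ltbr (-0.0011). Without the keratin limit, Cenpf (-0.032), Serpinb9b (-0.85) and Ormdl2 (-0.29) changed sign over primary tumour endothelial cells. No paired analysis was possible because each tissue has 1 library.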
